A study of Mus musculus with 8 samples.

Results

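The plasminogen activators, their receptor and their inhibitors form a small system around secreted proteases. Of the serpins analysed here, Serpinf1 and Serpinh1 do not inhibit proteases, and Serping1 encodes the C1 inhibitor of complement. The members were the probe sets annotated with exactly 1 symbol, being Plau, Plaur, Plat, Serpine2, Serpinf1, Serpinh1 or Serping1. Of these 7 names, 6 had such a probe set, and Serpine2 was not analysed here. They gave 10 of the 45101 probe sets on the array and 6 of the 18193 genes that the annotation names, with 2 probe sets each for Plau, Plat, Serpinf1 and Serpinh1 and 1 each for Plaur and Serping1. All 10 were bright enough to enter the tests.

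Subcutaneous preadipocytes, which resemble fibroblasts and can become fat cells, had been isolated from C57BL/6 newborns on day 2, and all of them carried Dicer lox/lox alleles. The 4 control samples received an adenovirus with GFP, and the 4 Dicer knockout samples an adenovirus with CRE recombinase and GFP, at 750 MOI with 4 µg/mL polybrene in each case. The vector names give the CMV promoter, which is active in most cell types. RNA was collected 4 days after infection and hybridised to 1 Affymetrix array per sample. The labels number the biological replicates 1 to 4 in each group but name no animals or cultures, so a p-value here reflects only the spread among these samples, which may be technical. A CRE virus control on cells with intact Dicer alleles is not among the 8 arrays, so effects of CRE and of Dicer loss cannot be told apart.

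Plasminogen is a circulating precursor that is cut into plasmin, a protease that dissolves fibrin and also cleaves matrix proteins and activates other proteases. The urokinase-type activator (Plau) works mostly at the cell surface on its receptor (Plaur), and the tissue-type activator (Plat) works mostly on fibrin. Serpins inhibit their target protease by trapping it in a covalent complex, although some family members have lost this activity and serve as chaperones or signals. In fat, the system takes part in matrix turnover while the tissue expands.

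Dicer cuts microRNA precursors into the mature strands that guide Argonaute proteins to messenger RNAs. The transcript of the urokinase gene is known as a target of miR-193, and that of the collagen chaperone Serpinh1 as a target of miR-29. Their mature sequences are shown because they are the Dicer products that link the deleted enzyme to 2 of the members. The capitals mark the seed, bases 2 to 8 from the 5′ end, which pairs with the target.
mmu-miR-193a-3p: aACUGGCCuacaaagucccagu
mmu-miR-193b-3p: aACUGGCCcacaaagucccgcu
mmu-miR-29a-3p: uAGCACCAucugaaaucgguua
mmu-miR-29b-3p: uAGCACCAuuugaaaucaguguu
mmu-miR-29c-3p: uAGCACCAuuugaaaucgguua
The 5 strands fall into 2 groups by seed, ACUGGCC for the miR-193 strands and AGCACCA for the miR-29 strands. The sequences and positions are those of RefSeq on GRCm38.p6. The miR-193a strand lies at chr11:79712009-79712030 and the miR-193b strand at chr16:13449570-13449591, both on the plus strand. The miR-29a strand lies at chr6:31062673-31062694 on the minus strand and the miR-29c strand at chr1:195037600-195037621 on the plus strand. The miR-29b strand is made from a copy beside each of these, at chr6:31063025-31063047 on the minus strand and chr1:195037091-195037113 on the plus strand. The arrays analysed here gave no level for these strands, so neither their presence in these cells nor their loss was measured.

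The Dicer1 transcript did not separate the groups on either of its probe sets. The brighter (1460571_at) read 1140.7 to 2113.7 in controls and 1110.1 to 1403.8 in knockouts, and the dimmer (1427941_at) 391 to 1045.1 and 487.8 to 753.8. Their place relative to the floxed segment was not known here, so they do not check the deletion. The median signal was 321.1 to 418.9 on the 8 arrays. Odd-numbered and even-numbered replicates of both groups differed in the 18S ribosomal RNA 5′ probe set, at 5905.9 to 14007.2 for odd numbers against 30583.9 to 43029.9 for even numbers. Of 13 preadipocyte and fibroblast markers, 12 were tested, with Pdgfra at 11906.1 to 22612.8 and Dlk1 at 15603.5 to 72944.1 over all arrays. Dlk1 was the 1 marker of these past the adjusted threshold in the paired limma fit, lower in the knockout arrays (log2 difference -0.72, adjusted p 0.0436), with an unpaired adjusted p of 0.999. The summed signal of the markers was 433834.9 to 524811.4 in controls and 414201 to 486230.9 in knockouts, and its part in the results was not tested. The markers of mature fat cells were uneven. Adipoq lay at 31.3 to 126.7, Cidec at 16.1 to 100.7 and Lep at 22.1 to 156.8 over all arrays. Fabp4, the only 1 of them tested, read 2079.7 to 3941.2 in controls and 1877.4 to 6206.2 in knockouts. The summed signal of the 8 macrophage markers with a probe set was 3572.8 to 4826 in controls and 3403.1 to 4378.4 in knockouts. Over all arrays Ptprc, the pan-leukocyte marker, lay at 8.5 to 138.4 and Itgam at 5.3 to 16.4. Brighter were Cd68 at 724.3 to 1749.8, Csf1r at 564 to 1385.6 and Cd14 at 617.5 to 948.5. Adgre1, Lyz2 and Tyrobp reached 619.9, 553.3 and 347.9. The summed signal of the 5 pericyte and smooth muscle markers was 18256.8 to 26060.4 in controls and 29231.1 to 37936.9 in knockouts, most of it from Acta2. The 5 skeletal muscle markers, all dim, summed to 582.8 to 655.3 and 824.4 to 1334.5. The part of these markers in the results below was not tested. The summed ranges of the adipocyte, endothelial, keratinocyte and Schwann cell markers overlapped between the groups. In bulk samples, fewer cells of a type and less RNA per cell cannot be told apart.

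None of the 10 member probe sets differed between control and knockout past the threshold, an adjusted p under 0.05 in limma's fit over 27026 probe sets. Over all probe sets 0.0037% passed, 1 of 27026. At an unadjusted p under 0.05 the counts were 0 of the 10 members against 3.77% of all probe sets. When the replicate number was entered as a block, which is called the paired fit below, 0 of the 10 passed again, against 0.0481% of all probe sets, and 2 of the 10 reached an unadjusted p under 0.05, against 9.14%. In 0 of the 10 did the control and knockout ranges separate without overlap, which 2.46% of all probe sets did. Each member had a limma adjusted p of 0.999 in the unpaired fit. Of the 6 genes, taken by their brightest probe set, 2 had a log2 difference above 0 and 4 below. Their median was -0.05, beside -0.002 over the 13259 tested genes. The 95% interval of each difference, given below, shows the range of differences compatible with the 4 arrays a group. It is not adjusted for the number of tests. It therefore does not give the size of change that could have missed the adjusted threshold, which was not tested.

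**Figure D1:**
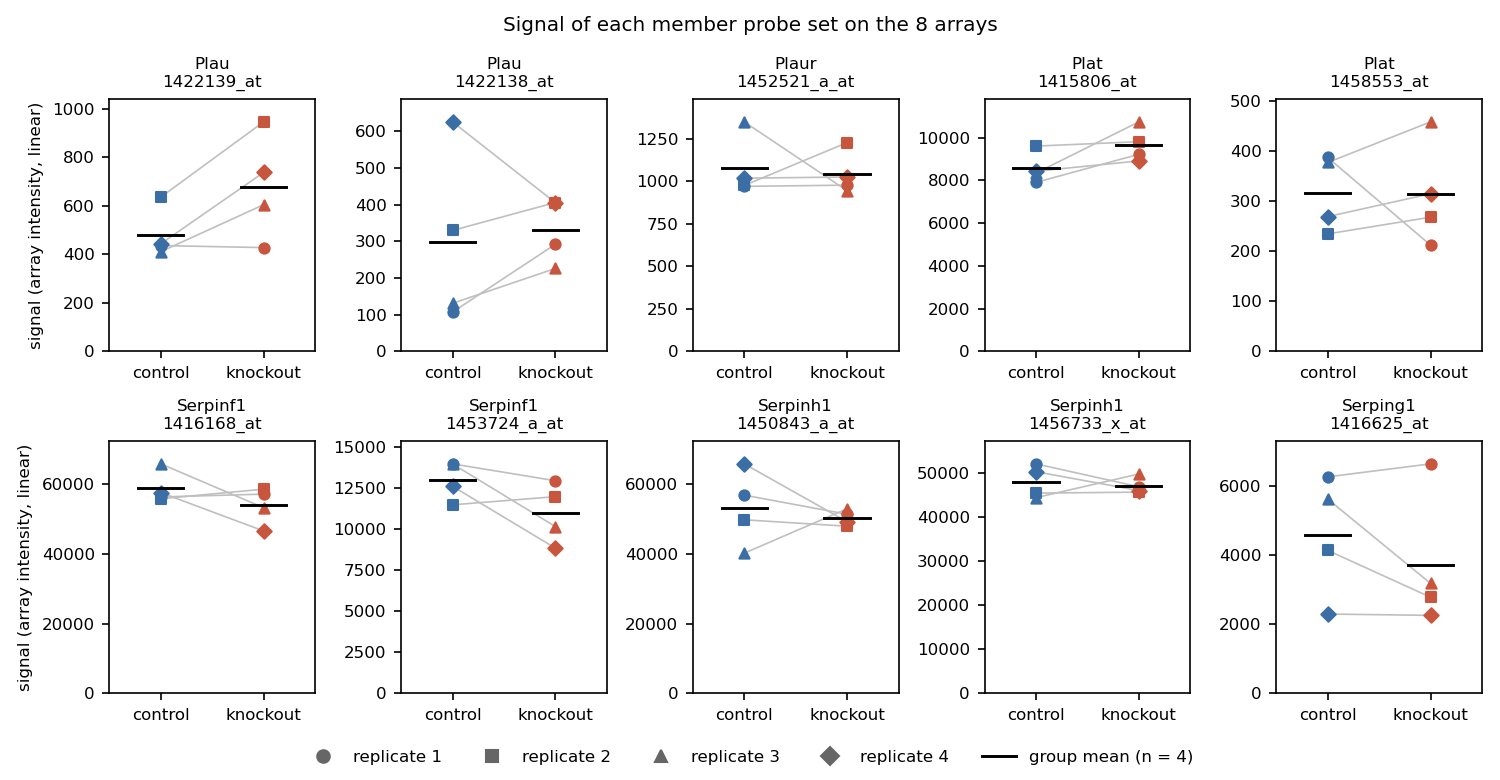
Array signal (linear intensity, y axes from 0) of the 10 member probe sets in control and Dicer knockout preadipocytes. Each marker shape is a replicate number, grey lines join the same number and black bars are means of 4 arrays. The groups overlap in every panel, and Serping1 shows the lines most clearly stacked by replicate number.

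The urokinase-type activator Plau had the highest positive difference of the 6 genes. Its brighter probe set (1422139_at) gave signals of 436.1, 635.6, 410.9 and 443.4 in controls 1 to 4. In knockouts 1 to 4 the signals were 427.7, 945.7, 604.4 and 737.4. Knockouts 2 and 4 lay above every control, knockout 1 lay within the control range, and knockout 3 lay below control 2. In both groups the odd-numbered arrays lay below the even-numbered ones. Their mean log2 difference, odd minus even, was -0.46, and its part in the result was not tested. The control mean was 482 ± 104 and the knockout mean 679 ± 219 (± SD, n = 4 per group). The log2 difference was 0.41 (SE 0.24, 95% interval -0.11 to 0.93, limma adjusted p = 0.999), or 1.33-fold. That interval runs from 0.927-fold to 1.90-fold. The paired fit gave an SE of 0.19 and an unadjusted p of 0.0563, with 3 of 4 pairs higher in the knockout and pair 1 at -0.02.

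The other Plau probe set (1422138_at) was dimmer and far less even. Controls 1 to 4 gave signals of 107.3, 330, 131.1 and 626.1, and knockouts 1 to 4 gave 292.1, 406, 226.3 and 405.6. All knockout values lay inside the control range. The odd-numbered arrays of both groups were below the even-numbered ones of the same group, with a mean log2 difference, odd minus even, of -1.0. Its log2 difference was 0.32 (SE 0.40, 95% interval -0.56 to 1.20). Single control arrays moved this value, which was 0.0436 without control 1, 0.103 without control 3 and 0.695 without control 4. Over the 8 arrays the 2 Plau probe sets correlated at a Pearson r of 0.427, and in only 2 of 4 pairs did they have the same sign. In pair 1 the brighter gave -0.02 and the dimmer 1.02. In pair 4 they gave 0.65 and -0.55.

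Plaur, the membrane-anchored receptor that holds urokinase at the cell surface, had a difference close to 0. Its probe set (1452521_a_at) gave signals of 969.8, 975.2, 1348.8 and 1018 in controls 1 to 4. In knockouts 1 to 4 the signals were 976.9, 1227, 944.4 and 1024.8. Control 3 and knockout 2 stood above the other 6 arrays, which lay between 944.4 and 1024.8. The log2 difference was -0.04 (SE 0.16, 95% interval -0.39 to 0.31), which allows 0.764-fold to 1.24-fold. Pairs 1 and 4 differed by 0.01 each, while pair 2 gave 0.31 and pair 3 gave -0.48.

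Plat, the tissue-type activator, had the most even direction among the members. Its brighter probe set (1415806_at) gave signals of 7910.2, 9610.3, 8349.3 and 8432.8 in controls 1 to 4. In knockouts 1 to 4 the signals were 9225.1, 9815.5, 10743.9 and 8916.5. The groups overlapped, since control 2 lay above knockouts 1 and 4. The knockout was higher in 4 of 4 pairs, by 0.22, 0.03, 0.36 and 0.08 on the log2 scale, which 8.61% of all tested probe sets also were. Of the 10 member probe sets 1 was higher in all 4 pairs and 0 were lower in all 4, against 8.24% lower over all tested probe sets. The control mean was 8576 ± 727 and the knockout mean 9675 ± 804 (± SD, n = 4 per group). The log2 difference was 0.17 (SE 0.11, 95% interval -0.06 to 0.41, limma adjusted p = 0.999), and the exact two-sided permutation p was 0.0857. The paired fit gave an unadjusted p of 0.058 and a limma adjusted p of 0.569. The dimmer Plat probe set (1458553_at) read 235.1 to 387.9 in controls and 212.6 to 459.2 in knockouts, with a log2 difference of -0.03 (SE 0.27). It correlated with the brighter at a Pearson r of -0.0115 over the 8 arrays, so the 2 did not vary together.

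**Figure D2:**
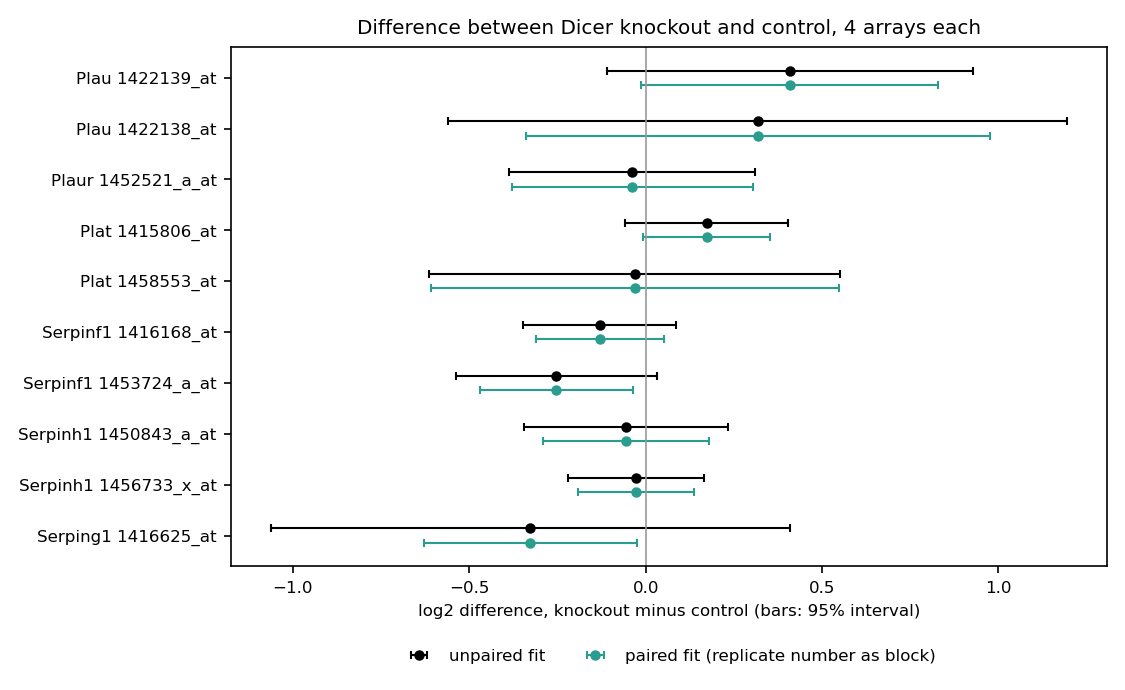
Log2 difference, knockout minus control, of the 10 member probe sets (x axis), with 95% intervals from the unpaired fit (black) and the paired fit (green), 4 arrays per group. All unpaired intervals include 0. The paired intervals of Serpinf1 1453724_a_at (-0.47 to -0.04) and Serping1 (-0.63 to -0.02) do not, before any adjustment for the number of tests.

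The serpins among the members act at different places. Serpinf1 encodes pigment epithelium-derived factor, a secreted serpin without protease inhibitory activity that is abundant in preadipocytes and restrains vessel growth. Its brighter probe set (1416168_at) gave signals of 56370.5, 55869.2, 65870.4 and 57621.6 in controls 1 to 4. In knockouts 1 to 4 the signals were 57190.1, 58596.4, 53289 and 46614.2. Knockouts 3 and 4 lay below all controls, and knockouts 1 and 2 within their range. The log2 difference was -0.13 (SE 0.10, 95% interval -0.35 to 0.09).

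The other Serpinf1 probe set (1453724_a_at) had a similar profile at a lower signal. Controls 1 to 4 gave signals of 13981.2, 11486.9, 13977.7 and 12614.7, and knockouts 1 to 4 gave 12953.6, 11983.9, 10162.6 and 8849.9. Knockouts 3 and 4 were again the lowest of the 8 arrays. The control mean was 13015 ± 1205 and the knockout mean 10988 ± 1836 (± SD, n = 4 per group), and the log2 difference was -0.25 (SE 0.13, 95% interval -0.54 to 0.03, limma adjusted p = 0.999). The paired fit gave an unadjusted p of 0.0256, which did not hold after adjustment over all probe sets (limma adjusted p = 0.463). The 2 Serpinf1 probe sets correlated at a Pearson r of 0.866 over the 8 arrays. In both of them pairs 3 and 4 carried most of the difference, with -0.31 and -0.31 in the brighter and -0.46 and -0.51 in the dimmer. Pair 2 gave 0.07 and 0.06, and pair 1 gave 0.02 in the brighter and -0.11 in the dimmer.

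Serpinh1 encodes Hsp47, a collagen chaperone of the endoplasmic reticulum that does not inhibit proteases. Its brighter probe set (1450843_a_at) gave signals of 56824.5, 49753.4, 40188.7 and 65783.1 in controls 1 to 4. In knockouts 1 to 4 the signals were 51344.8, 47918.7, 52917.8 and 49196.4. The controls were spread widely, from control 3 to control 4, and all knockouts lay inside that range (SD 10842 in controls and 2223 in knockouts). The log2 difference was -0.06 (SE 0.13, 95% interval -0.34 to 0.23). The other probe set (1456733_x_at) read 44404.6 to 52067.6 in controls and 45645.9 to 49763.2 in knockouts, with a log2 difference of -0.03 (SE 0.09, 95% interval -0.22 to 0.17). This allows 0.859-fold to 1.12-fold, the narrowest interval of the members. Its name ends in _x_at, which Affymetrix gives to sets with probes that can also bind other transcripts, so its level is uncertain. Across the 8 arrays the 2 Serpinh1 probe sets correlated at a Pearson r of 0.823.

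Serping1 encodes the C1 inhibitor, which blocks C1r and C1s of complement as well as plasma kallikrein and factor XII, and which interferon is known to induce. Its probe set (1416625_at) gave signals of 6264.2, 4137.2, 5621.9 and 2295.7 in controls 1 to 4. In knockouts 1 to 4 the signals were 6640.3, 2782.5, 3181.9 and 2257.6. The highest array of each group was replicate 1 and the lowest replicate 4, so that the level followed the replicate number more than the group. Replicate number held 82.3% of the sum of squares of its log2 values over the 8 arrays, a share above that of 83% of the tested probe sets. The control mean was 4580 ± 1764 and the knockout mean 3716 ± 1986 (± SD, n = 4 per group), and the log2 difference was -0.33 (SE 0.34, 95% interval -1.06 to 0.41, limma adjusted p = 0.999).

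With the replicate number as a block, the SE of Serping1 was 0.14 in place of 0.34, and the unadjusted p was 0.0362 (limma adjusted p = 0.504 in the paired fit). Pairs 2 and 3 gave -0.56 and -0.81, while pair 1 gave 0.08 and pair 4 gave -0.02. The odd-numbered arrays were higher than the even-numbered ones by 0.89 on the log2 scale, which went with the 18S signal in the opposite direction. The part of that split in the result was not tested. Single arrays moved the unpaired log2 difference of Serping1, to -0.64 without knockout 1, -0.62 without control 4 and -0.14 without knockout 4.

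**Figure D3:**
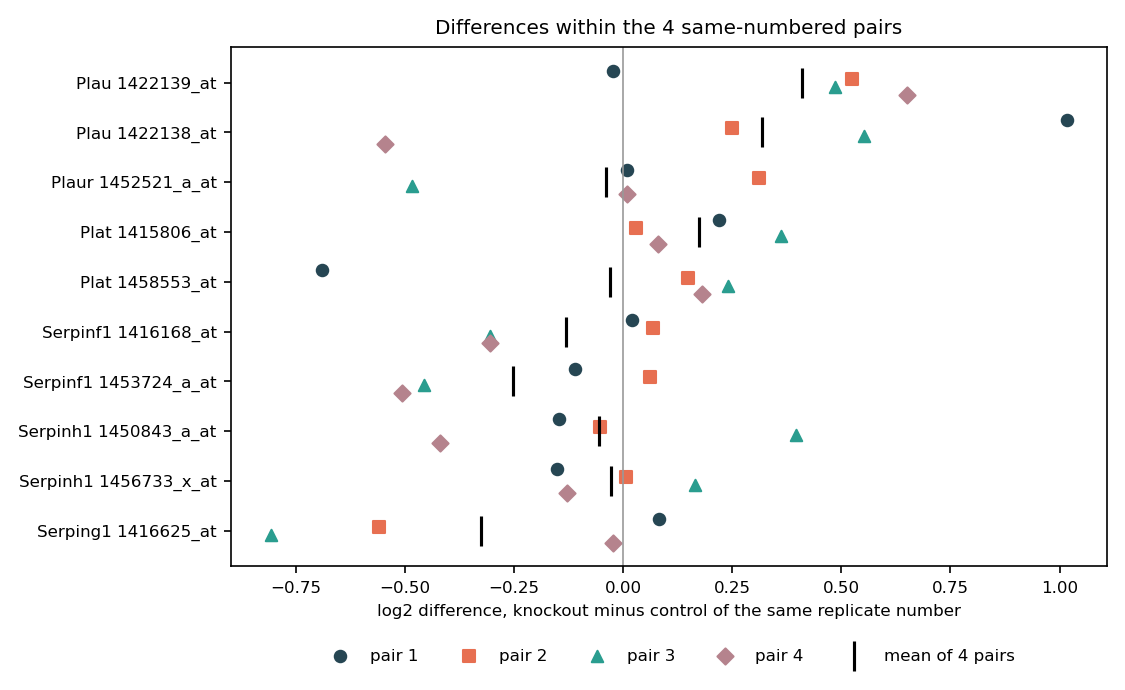
Log2 difference between knockout and control arrays of the same replicate number (x axis), 1 marker per pair, for the 10 member probe sets, with the mean of the 4 pairs as a black tick. Plat 1415806_at has all 4 pairs above 0. The negative means of Serpinf1 come mostly from pairs 3 and 4 and that of Serping1 from pairs 2 and 3.

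The members also differed in how much they varied from array to array. The SD of the log2 values over all 8 arrays was 0.63 for Serping1, above that of 93.2% of the tested probe sets, and 0.66 for the dimmer Plau probe set. It was 0.14 for the brighter probe sets of Plat and of Serpinf1, above 11.1% and 10.2% of the tested probe sets, and 0.08 for the _x_at probe set of Serpinh1, above 0.995%. Serping1 was brighter than 88.2% of all non-control probe sets, and Plaur, less bright, had an SD of 0.17.

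For each member, the 2 genes with the most similar profile over the 8 arrays were found by Pearson correlation of log2 values among the 13259 tested genes. With so many genes and 8 arrays, high values arise easily, and they are given as a description. Serping1 was most like Kdm3b, a histone demethylase (r = 0.979), and Sfrp2, a secreted Wnt modulator (r = 0.978). In all, 172 genes had an r above 0.9 with Serping1, against 10 to 20 for the other 5 members. Serpinf1 was most like 1300017J02Rik (r = 0.954) and Car11 (r = 0.931). Serpinh1 was most like Ssb, an RNA-binding protein (r = 0.989), and Blvrb, biliverdin reductase B (r = 0.950). Plat was most like Uspl1 (r = 0.977) and Ttc9 (r = 0.952), Plau like Trib2 (r = 0.960) and Rnf181 (r = 0.955), and Plaur like Dnase1l2 (r = 0.954) and Golga4 (r = 0.945).

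The wider plasmin system was read from a list of 45 genes, of which 32 were tested. The other 13 did not enter the tests. Among them Plg, plasminogen itself, was too dim to pass the filter. Of the 32 genes 0 passed limma's adjusted threshold in either fit, where the background over all genes was 0% unpaired and 0.0754% paired. The log2 difference was above 0 for 18 and below 0 for 14, with a median of 0.03. The brightest were Mmp2, a gelatinase (log2 difference -0.19, SE 0.22), Mmp14, the membrane protease that activates it (-0.07, SE 0.18), and Anxa2, a plasminogen and Plat receptor at the cell surface (-0.01, SE 0.14). S100a10, the partner of Anxa2, had a log2 difference of 0.20 (SE 0.21), the coagulation starter F3 one of -0.14 (SE 0.14), and Itgav, an integrin chain that binds vitronectin, one of 0.23 (SE 0.16).

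At an unadjusted p under 0.05, the unpaired fit had 2 of the 32 genes higher and 0 lower, or 6.25%, beside 3.93% of all genes. They were Thbd, the thrombin receptor of the anticoagulant protein C pathway, and St14, a membrane serine protease, both named after their values were seen. Thbd averaged 3367 ± 764 in the controls and 4445 ± 696 in the knockouts (± SD, n = 4 per group). Its log2 difference was 0.41 with an SE of 0.18 (limma adjusted p = 0.999). St14 averaged 489 ± 318 and 883 ± 174 (± SD, n = 4 per group), a log2 difference of 0.96 with an SE of 0.39 (limma adjusted p = 0.999). In the paired fit 6 of the 32 had an unadjusted p under 0.05, or 18.8%, beside 10.3% of all genes. To Thbd and St14 this added Mmp2, Mmp3, Lrpap1 and Vldlr, each with a negative difference, and the last 3 were named after their values were seen. Lrpap1, the chaperone of LRP receptors, and Vldlr, a receptor that clears activator and inhibitor complexes, had log2 differences of -0.28 (SE 0.16, paired SE 0.08) and -0.30 (SE 0.18, paired SE 0.08). Mmp3, stromelysin, which plasmin can activate, differed by -0.40 on the log2 scale (SE 0.49, paired SE 0.10). The smallest limma adjusted p among the 32 was 0.226 in the paired fit.

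**Figure D4:**
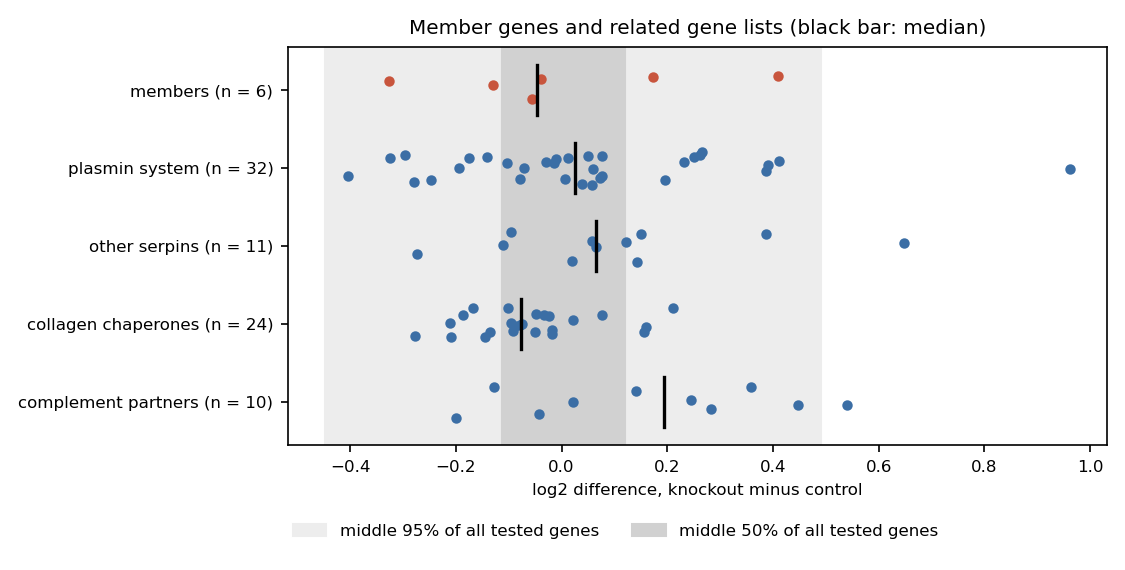
Log2 difference, knockout minus control (x axis), of each tested gene by its brightest probe set, for the members and 4 related lists, with list medians as black bars and the middle 50% and 95% of all tested genes shaded. All 6 members lie within the middle 95% of tested genes (-0.45 to 0.49), and 0 of the plotted genes passed the adjusted threshold.

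Among 23 other serpins, 11 were tested and 0 passed in either fit, with 0 at an unadjusted p under 0.05 in either. Their median log2 difference was 0.07, with 8 above 0. Serpinb6a, an intracellular inhibitor, was the brightest (log2 difference 0.12, SE 0.15), followed by Serpina3n, a secreted inhibitor (-0.09, SE 0.13). Serpinb1a, Serpinb8, Serpinb9 and Serpinb9b had log2 differences of 0.14 (SE 0.23), -0.11 (SE 0.26), 0.07 (SE 0.22) and 0.02 (SE 0.20).

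The collagen chaperones and modifying enzymes that work beside Serpinh1 were mostly below 0, without any call. Of 32 names 24 were tested, 19 had a negative log2 difference, and the median was -0.08, beside 6688 negative of 13259 and a median of -0.002 over all genes. The count past the adjusted threshold was 0 in both fits, with 0 unpaired and 2 paired at an unadjusted p under 0.05, the latter 8.33% of the list beside 10.3% of all genes. The 6 brightest had small standard errors. Sparc, a collagen-binding matrix protein, had a log2 difference of -0.03 (SE 0.09) and Pcolce, an enhancer of procollagen cleavage, one of -0.10 (SE 0.09). Lox, the collagen cross-linking oxidase, was at -0.02 (SE 0.10), Ppib at -0.05 (SE 0.10), Hspa5, the main chaperone of the endoplasmic reticulum, at -0.09 (SE 0.10) and P4hb, a subunit of prolyl hydroxylase, at -0.09 (SE 0.09). The 2 at an unadjusted p under 0.05 in the paired fit were named after their values were seen. They were P4ha1, a catalytic prolyl hydroxylase subunit (log2 difference 0.21, paired SE 0.08), and Plod1, a lysyl hydroxylase (-0.28, paired SE 0.10).

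The complement genes around Serping1 included direct targets of the C1 inhibitor. Among these targets, C1s1 and C1ra, proteases of C1, had log2 differences of 0.02 (SE 0.12) and -0.13 (SE 0.11). Of 21 names 10 were tested and 0 passed the adjusted threshold in either fit. The median log2 difference was 0.19, with 7 above 0. At an unadjusted p under 0.05 the unpaired fit held Masp1 and Cfb, or 20% of the 10, beside 3.93% of all genes. The paired fit added Cd59a and Cd55, or 40% beside 10.3% of all genes, and all 4 differences were positive. Cfb, factor B of the alternative pathway, averaged 788 ± 184 in the controls and 1166 ± 148 in the knockouts (± SD, n = 4 per group). Its log2 difference was 0.54 with an SE of 0.18 (limma adjusted p = 0.999). Masp1, a protease of the lectin pathway, averaged 2485 ± 468 and 3176 ± 275 (± SD, n = 4 per group), a log2 difference of 0.36 with an SE of 0.15 (limma adjusted p = 0.999). Cd59a, which protects cells from complement lysis, and C2, the second complement component, had log2 differences of 0.28 (SE 0.14) and -0.04 (SE 0.14). Cd55, a brake on complement at the membrane, named after its values were seen, had one of 0.45 (SE 0.34, paired SE 0.19).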

How the data were processed

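The authors deposited 1 linear array intensity per probe set and sample. The submitters' processing notes name GCOS 1.3 and MAS5. The 2% trimmed mean of the deposited values was 1500 on each of the 8 arrays, which shows a scaling per array. Any further normalization was not known here.

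For analysis, 73.1 (the 20th percentile over the whole table) was added to each signal before log2 was taken, so differences of dim probe sets are understated. After removal of 64 array controls and of the lower 40% by mean log2 value, 27026 probe sets were tested. The test was limma 3.58.1 in R 4.3.3 (lmFit, then eBayes with its trend option; two-sided), with Benjamini-Hochberg adjustment across them. Each gene was read from the brightest of its tested probe sets that carry 1 symbol. For S100a10, Vldlr, Ppib and C2 the name of that set also ends in _x_at, so their levels are uncertain as for Serpinh1. SE is that of the fit, and SD is of signals. Single values were also compared by exact permutation, whose smallest p is 0.0286. Scripts were tested on simulated data. Figures used matplotlib 3.10.9.

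Deviations from group means correlated at 0.189 to 0.372 between same-numbered arrays and at -0.347 to 0.149 between others. Among these others, r was 0.0842 to 0.149 where both numbers were odd or both even, and -0.347 to -0.126 elsewhere. The part of the odd and even split in the same-numbered values was not tested. The numbers were taken as pairs, from the labels' numbering and this correlation check, and the unpaired fit stayed the main one. The annotation names no genome build, so gene coordinates are not printed. Named list genes are the 6 brightest tested of each list, plus any past the adjusted threshold; others were named for an unadjusted p under 0.05 after their values were seen. The 2 most similar genes per member were chosen by Pearson correlation. The members and lists were chosen with earlier results of these data known. Alternatives covered scaling, pseudocount, filter, trend, array weights, blocks, left-out arrays and the choice of probe set.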

Additional observations from a re-analysis of the deposited data

Results flagged for a closer look

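In all, 2 values of the members stood apart from the other 3 arrays of their group by Dixon's ratio, which chance exceeds in about 1 of 20 groups. Plau probe set 1422139_at read 635.6 on control array 2, against 410.9 to 443.4 on the other controls. Knockout array 2 was also the highest of its group, at 945.7. Plaur probe set 1452521_a_at read 1348.8 on control array 3, against 969.8 to 1018 on the other controls, while knockout array 3 was the lowest of its group, at 944.4. Of the 20 groups examined, 10 probe sets in control and in knockout, 2 were set apart in this way.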

How the results depend on the processing

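Under the 24 alternatives tried on single probe sets, 0 member probe sets passed the adjusted threshold. The counts of member genes and of plasmin system genes past it stayed at 0, also with the mean of all probe sets of a gene. The replicate block (the paired fit) cannot change the log2 differences, since both groups hold the same replicate numbers. They stayed at 0.173 for Plat 1415806_at and -0.327 for Serping1, and no member's call changed. The odd or even block, the filter and the variance trend cannot change a probe set's log2 difference either. These settings therefore do not test its direction. Direction was kept in every alternative run by Plat 1415806_at (0.055 to 0.29), Plau 1422139_at (0.231 to 0.588), Serpinf1 1416168_at (-0.197 to -0.0623), Serpinf1 1453724_a_at (-0.358 to -0.155) and Serping1 (-0.644 to -0.135). The other 5 probe sets changed sign in places, and the cause was not tested. When single arrays were left out, the log2 differences ranged from 0.0436 to 0.695 for Plau 1422138_at, -0.114 to 0.0674 for Plaur, -0.196 to 0.103 for Plat 1458553_at, -0.182 to 0.0546 for Serpinh1 1450843_a_at and -0.064 to 0.0125 for Serpinh1 1456733_x_at. Array weights gave 0.0116 for Plaur and 0.0665 for Plat 1458553_at. The paired fit gave 0.0143 for Serpinh1 1456733_x_at and 0.19 for Plat 1458553_at without pair 1, 0.11 for Plaur without pair 3, and 0.0654 and 0.00641 for the brighter and dimmer Serpinh1 probe sets without pair 4. With odd-numbered pairs only, these Serpinh1 values were 0.125 and 0.00628. With even-numbered pairs only, Plau 1422138_at gave -0.149, Plaur 0.16 and Plat 1458553_at 0.165. The member median of -0.047 was -0.0731 with median centring, -0.015 with array weights, and -0.0793 to -0.00266 when single arrays were left out. In the paired fit it was -0.105, 0.0189 and 0.00561 without pair 2, 3 or 4, and -0.0086 with odd-numbered pairs only. Over all tested probe sets, 1 passed unpaired and 0 to 2 did when single arrays were left out. The count was 0 with median centring, with no filter and with no variance trend. It was 13 in the paired fit, and there 80, 1, 0 and 2 without pair 1, 2, 3 or 4, with 1 from odd-numbered and 0 from even-numbered pairs alone. With 4 arrays per group, the upper ends of the members' unpaired 95% intervals ran from 1.02-fold (Serpinf1 1453724_a_at) to 2.29-fold (Plau 1422138_at). The lower ends ran from 0.479-fold (Serping1) to 0.960-fold (Plat 1415806_at). These intervals are not adjusted for the number of tests. The scaling moved the median of all tested genes by under 0.1 on the log2 scale.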
